A study of Drosophila melanogaster with 18 samples.

Results

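The glutathione S-transferase (Gst) genes of Drosophila were measured in the central nervous system (CNS) of larvae of the third instar. They were taken as all probe sets with a single gene symbol that begins with GstD, GstE, GstO, GstS, GstT or GstZ, which gave 36 of the 18769 probe sets tested and covered 34 of the 11982 genes with a probe set of their own. By class these were 11 Delta, 14 Epsilon, 4 Omega, 1 Sigma, 4 Theta and 2 Zeta probe sets. GstE9 and GstO2 had 2 probe sets each, labelled (a) and (b) here. GstE9 (b) has a second name: the platform annotation calls it GstE9 and the study's own tables call it GstE8, so its gene is uncertain.

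Glutathione S-transferases join the thiol of glutathione to reactive or foreign molecules, which are then exported and broken down, and several also reduce lipid peroxides. In insects the Delta and Epsilon classes have expanded and are best known for insecticide detoxification and for defence against oxidative stress, under the control of cnc, the fly Nrf2 homologue, and its inhibitor Keap1. The Omega, Sigma, Theta and Zeta classes are shared with vertebrates, and the Zeta class takes part in tyrosine breakdown.

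The study asked how neurons respond to mitochondrial dysfunction, caused here by overexpression (o/e) of TFAM, the mitochondrial transcription factor A, and how that response depends on Pnt and Aop, ETS transcription factors downstream of Ras-ERK signaling. RNA from 6 genotypes was hybridised to Affymetrix Drosophila Genome 2.0 arrays, with 3 arrays per genotype and 20 pooled larvae per array. TFAM o/e larvae carried nsybGal4 with UAS-TFAM3M. TFAM o/e, Pnt RNAi larvae carried nsybGal4 with UAS-TFAM3M and the Pnt RNAi transgene JF02227, and TFAM o/e, Aop RNAi larvae carried nsybGal4 with UAS-TFAM3M and the Aop RNAi transgene 3166R1. Pnt RNAi and Aop RNAi larvae carried nsybGal4 with JF02227 or with 3166R1 alone, and control larvae carried nsybGal4 over a wild type chromosome. The driver nsybGal4 is active in post-mitotic neurons, whereas the RNA came from the whole CNS with its glia and any attached tissue, and the control carried no UAS transgene. All genotypes with TFAM o/e carried the same UAS-TFAM3M line, and each RNAi used a single transgene. Effects of TFAM o/e or of an RNAi therefore cannot be told apart from other effects of the same line. All larvae were kept at 25 degrees.

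The TFAM probe set read 11.84 to 12.58 on the log2 scale in the 9 arrays with TFAM o/e and 10.35 to 10.85 in the 9 arrays without it, as the labels require. The signals of pnt and aop are not given here, so the extent of either knock-down is not shown. Summed signals of neuronal markers were between 13.33 and 13.80 and those of glial markers between 13.93 and 14.43 over all arrays (log2). Markers of fat body (4 genes, 12.26 to 14.18), ring gland (5 genes, 9.95 to 13.48) and salivary gland (5 genes, 9.19 to 13.61) were present too, and midgut genes were low (4.46 to 7.73). In whole-tissue RNA, fewer cells of a type and less RNA per cell cannot be told apart. All values below are MAS5.0 signals on a log2 scale. Levels of different probe sets cannot be ranked against each other, because probes differ in how well they bind.

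The Gst probe sets ranged from bright to dim, and no calls of presence or absence were used. The mean log2 signal over the 18 arrays was at least 9 for 16 of the 36 and under 5 for 11, while 46.4 to 49.7% of all probe sets of an array read under 5. On 12 probe sets every array was at 9 or above, among them GstD1, GstS1, GstE12 and both GstO2 probe sets. The dim group held GstD4, GstD5, GstD6, GstD7, GstD8, GstD10, GstE4, GstE5, GstE7, GstE9 (a) and GstE10. GstD6, GstD8, GstE4 and GstE10 had at least 1 array at 0. The median spread within a genotype (pooled SD) was 0.26 for members with a mean of at least 6 and 0.84 for members with a mean under 5, so changes of the dim members were measured far less precisely.

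TFAM o/e was accompanied by a clear rise of 1 Gst gene, GstD2, in all 3 genetic backgrounds. GstD2 is a Delta class enzyme encoded in a tandem cluster on chromosome 3R. Averaged over the control, Pnt RNAi and Aop RNAi backgrounds, GstD2 was 2.85-fold higher with TFAM o/e, and GstT3 and GstO3 were 1.39-fold and 1.38-fold higher. The other 33 Gst probe sets did not pass the test in this comparison, and none passed it as lower.

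GstD2 read 7.23, 6.97 and 7.67 in TFAM o/e arrays, against 5.88, 5.67 and 6.49 in control arrays. It read 7.21, 7.38 and 7.38 in TFAM o/e, Pnt RNAi arrays, against 5.90, 6.03 and 5.91 in Pnt RNAi arrays. It read 7.77, 7.65 and 7.67 in TFAM o/e, Aop RNAi arrays, against 5.70, 6.15 and 5.62 in Aop RNAi arrays. The lowest of the 9 arrays with TFAM o/e thus lay 0.48 above the highest of the 9 without it. The average log2 fold change was 1.51 (SE 0.14, limma adjusted p = 5.76e-06). It was 1.28 against control (SE 0.25, adjusted p = 0.0351), 1.38 against Pnt RNAi (SE 0.25, adjusted p = 0.0232) and 1.87 against Aop RNAi (SE 0.25, adjusted p = 0.000812). The average and the change in the Aop RNAi background stayed past the threshold whichever single array was left out. The call against control was lost in 5 of 6 such fits (all but the one without control replicate 3, adjusted p up to 0.273) and the call against Pnt RNAi in 6 of 6 (up to 0.154), with log2 fold changes of 1.09 to 1.52 and 1.35 to 1.43.

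**Figure D1:**
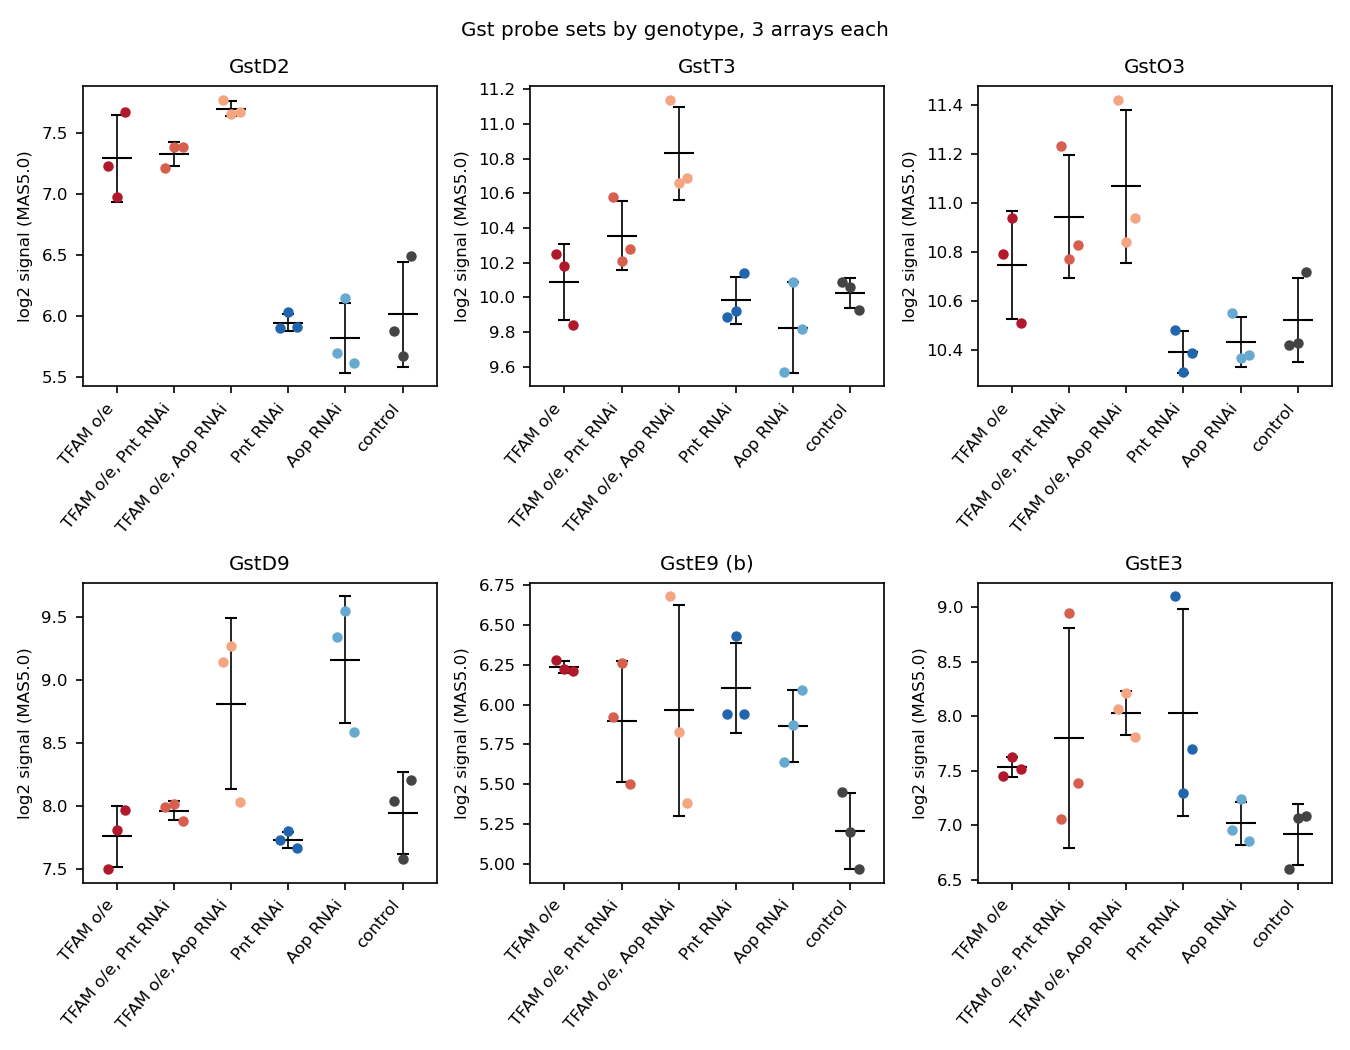
log2 signal (y axis) of 6 Gst probe sets in each of the 6 genotypes (x axis). Each point is 1 array, the horizontal mark is the mean of 3 arrays and the bar is its SD. GstD2 is at 6.97 or above in every array with TFAM o/e and at 6.49 or below in every other array. GstD9 has its highest means in the genotypes with Aop RNAi.

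The RNAi transgenes alone left GstD2 close to control, with log2 fold changes of -0.07 for Pnt RNAi and -0.19 for Aop RNAi (SE 0.25 each, adjusted p = 0.97 and 0.972). On top of TFAM o/e the differences were 0.03 with Pnt RNAi and 0.41 with Aop RNAi (SE 0.25 each, adjusted p = 1 for both). The difference between the TFAM o/e effects themselves, the interaction term, was 0.10 for Pnt RNAi (SE 0.35, adjusted p = 0.984) and 0.60 for Aop RNAi (SE 0.35, adjusted p = 1). Against control, the combined genotypes were higher by 1.31 for TFAM o/e, Pnt RNAi (adjusted p = 0.018) and by 1.68 for TFAM o/e, Aop RNAi (adjusted p = 0.00264). The first of these was lost in 5 of 6 fits without 1 array (adjusted p up to 0.107), all but the one without control replicate 3. These last comparisons share the control arrays with the TFAM o/e comparison and are not independent of it.

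Among Gst genes, the members called with TFAM o/e were 1 of 36 against control (2.78%), where 0.181% of all probe sets were called. They were 1 of 36 against Pnt RNAi (background 0.139%), 2 of 36 against Aop RNAi (5.56%, background 0.208%) and 3 of 36 for the average (8.33%, background 0.543%). At an unadjusted p under 0.05 the counts were 5 of 36 against control (13.9%, background 5.53%), 8 of 36 against Pnt RNAi (22.2%, background 6.26%), 5 of 36 against Aop RNAi (13.9%, background 4.42%) and 7 of 36 for the average (19.4%, background 7.64%). The methods' test, run per probe set without adjustment and asking also for a 1.5-fold change, gave 2 of 36 against control (background 2.68%), 3 of 36 against Pnt RNAi (background 3.29%) and 5 of 36 against Aop RNAi (background 2.83%). Of the unadjusted counts, 2 against control, 3 against Pnt RNAi and 2 for the average were lower, and all 5 against Aop RNAi were higher. By the methods' test, 2 of the 3 against Pnt RNAi were lower, and all others in these 3 comparisons were higher. The median log2 fold change of the 36 probe sets for the average was 0.06, beside -0.03 for all probe sets. The 3 called members were GstD2, GstT3 and GstO3, and the remaining unadjusted ones were GstD5 and GstE1 (higher) and GstD11 and GstE2 (lower).

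**Figure D2:**
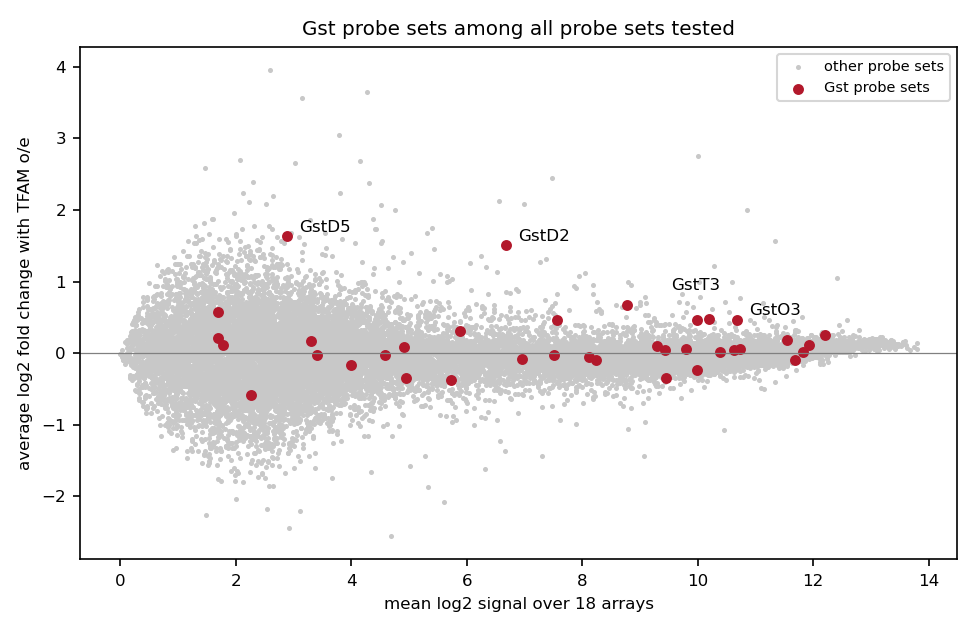
Average log2 fold change with TFAM o/e over the 3 backgrounds (y axis) against mean log2 signal over 18 arrays (x axis). Grey points are the other probe sets tested and red points the 36 Gst probe sets. GstD2 (1.51) stands above most probe sets of like brightness, and GstD5 (1.64) lies among dim probe sets, where fold changes scatter widely.

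The neighbours of GstD2 in the Delta cluster did not pass the test. In the RefSeq gene order, GstD10, GstD9, GstD1, GstD2, GstD3, GstD4, GstD5, GstD6, GstD7 and GstD8 follow one another on 3R with no other gene between them. GstD1, next to GstD2 on one side, is the best-studied fly Gst and a common reporter of cnc activity. It read 12.27, 12.38 and 12.47 in TFAM o/e arrays and 12.32, 11.96 and 12.41 in control arrays. In the Pnt RNAi background it read 12.77, 12.05 and 12.12 with TFAM o/e and 11.86, 12.15 and 12.04 without, and in the Aop RNAi background 12.54, 12.30 and 12.07 with TFAM o/e and 12.49, 11.94 and 11.58 without. These ranges overlapped in every background, and the average change of GstD1 was 0.25 (SE 0.13, adjusted p = 0.701). GstD3, on the other side of GstD2, changed by -0.24 (SE 0.12, adjusted p = 0.706). In TFAM o/e alone GstD3 read 9.84, 9.82 and 9.56, below the 10.67, 10.17 and 10.22 of control arrays, with a log2 fold change of -0.61 that did not pass (unadjusted p = 0.0106, adjusted p = 0.654).

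GstD5 had a larger fitted change than GstD2 but on a dim probe set. It ranged over 2.82 to 4.62 in the 9 arrays with TFAM o/e, with a median of 3.90, and over 0.22 to 3.69 in the 9 arrays without it, with a median of 2.00. The groups overlapped, and every array was below 5. The average log2 fold change of 1.64 (SE 0.42) had an adjusted p of 0.138. With signals under 32 (log2 5) set to 32, GstD5 had no change left to measure.

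**Figure D3:**
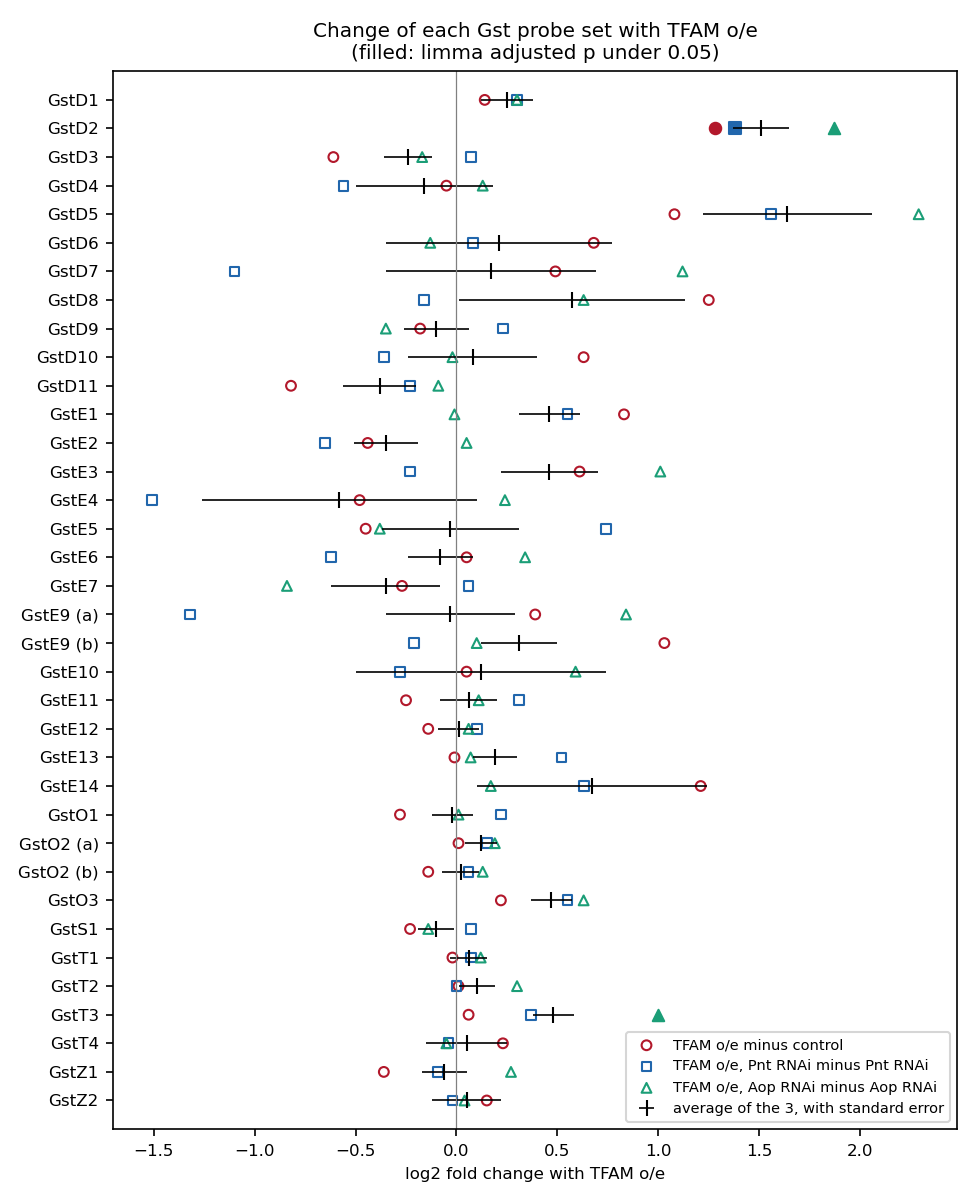
log2 fold change with TFAM o/e (x axis) of each of the 36 Gst probe sets (y axis) in the control, Pnt RNAi and Aop RNAi backgrounds, with the average of the 3 and its standard error as a black bar. Filled symbols passed an adjusted p of 0.05: GstD2 in all 3 backgrounds and GstT3 against Aop RNAi.

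GstT3, a Theta class gene on the X chromosome, rose with TFAM o/e in the Aop RNAi background and in the average. It read 11.14, 10.66 and 10.69 in TFAM o/e, Aop RNAi arrays, against 9.57, 10.09 and 9.82 in Aop RNAi arrays. It read 10.58, 10.21 and 10.28 in TFAM o/e, Pnt RNAi arrays, against 9.89, 9.92 and 10.14 in Pnt RNAi arrays, and 10.25, 10.18 and 9.84 in TFAM o/e arrays, against 10.09, 10.06 and 9.93 in control arrays. The 3 TFAM o/e, Aop RNAi arrays were the highest of the 18, whereas TFAM o/e and control overlapped. The log2 fold change was 1.00 against Aop RNAi (SE 0.17, adjusted p = 0.00719), 0.37 against Pnt RNAi (SE 0.17, adjusted p = 0.779) and 0.06 against control (SE 0.17, adjusted p = 1). The average was 0.48 (SE 0.10, adjusted p = 0.0206).

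The difference between the GstT3 effects in the Aop RNAi and control backgrounds was 0.94 (SE 0.23), with an unadjusted p of 0.00078 and an adjusted p of 0.457, so it did not pass over all probe sets. TFAM o/e, Aop RNAi exceeded TFAM o/e by 0.74 (adjusted p = 0.176) and control by 0.80 (adjusted p = 0.0516), without overlap of arrays in either case. Against Aop RNAi, the call of GstT3 was lost when replicate 1 of Aop RNAi was left out (0.88, adjusted p = 0.0595) or replicate 1 of TFAM o/e, Aop RNAi (0.85, adjusted p = 0.0662). The call for the average was lost in 5 of 18 fits that left out 1 array, namely TFAM o/e replicates 1 and 2, Pnt RNAi replicates 1 and 2 and TFAM o/e, Pnt RNAi replicate 1 (adjusted p up to 0.0611). The other Theta genes, GstT1, GstT2 and GstT4, had average changes of 0.05 to 0.10 and did not pass.

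GstO3 is an Omega class gene on 3L, a class whose members reduce dehydroascorbate. It read 10.79, 10.94 and 10.51 in TFAM o/e arrays, against 10.42, 10.43 and 10.72 in control arrays. It read 11.23, 10.77 and 10.83 in TFAM o/e, Pnt RNAi arrays, against 10.48, 10.31 and 10.39 in Pnt RNAi arrays, and 11.42, 10.84 and 10.94 in TFAM o/e, Aop RNAi arrays, against 10.55, 10.37 and 10.38 in Aop RNAi arrays. The arrays separated in both RNAi backgrounds and overlapped against control. The average log2 fold change was 0.47 (SE 0.10, adjusted p = 0.025), from 0.22 against control, 0.55 against Pnt RNAi and 0.63 against Aop RNAi, none of which passed alone. The average call was lost in 9 of 18 fits that left out 1 array, each with an adjusted p of at most 0.0727. Those arrays were replicates 1 and 2 of control, replicates 1 and 2 of TFAM o/e, replicates 2 and 3 of Pnt RNAi, replicates 2 and 3 of Aop RNAi and replicate 1 of TFAM o/e, Pnt RNAi. GstO1 and both GstO2 probe sets changed by -0.02 to 0.12 on average and did not pass.

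Levels of other tissues' markers were set beside these changes, as the log2 of the summed signals of a list in each array. They are given as ranges over the 9 arrays with TFAM o/e and the 9 without it. Haemocyte markers (7 genes) spanned 10.08 to 11.36 with TFAM o/e and 10.19 to 10.87 without, fat body markers (4 genes) 12.27 to 14.04 and 12.26 to 14.18, and midgut markers (4 genes) 4.86 to 6.81 and 4.46 to 7.73. Muscle markers (5 genes) spanned 8.04 to 9.12 with TFAM o/e and 7.85 to 8.85 without, ring gland markers (5 genes) 11.32 to 13.48 and 9.95 to 13.02, and salivary gland markers (5 genes) 9.31 to 13.61 and 9.19 to 12.45. Each of these ranges overlapped, and limma called 0 of the marker probe sets with TFAM o/e in any background or in the average.

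Against control, TFAM o/e had a median log2 fold change of 1.21 over the ring gland markers and of 1.63 over the salivary gland markers. Of the salivary gland probe sets, 3 of 5 had an unadjusted p under 0.05 (background 5.53%). For the average these medians were 0.66 and 0.15. Haemocyte markers summed to 11.36, 11.16 and 10.80 in TFAM o/e, Aop RNAi arrays, against 10.51, 10.87 and 10.19 in Aop RNAi arrays. Their median log2 fold change was 0.52, and 3 of 8 probe sets had an unadjusted p under 0.05 (background 4.42%). The part of any of these markers in the changes of GstD2, GstT3 and GstO3 was not tested.

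Neither Pnt RNAi nor Aop RNAi was accompanied by a Gst call in single comparisons. Pnt RNAi against control gave 0 of 36 by limma (background 0.293%), 6 of 36 at an unadjusted p under 0.05 (background 7.24%) and 2 of 36 by the methods' test (background 3.37%). Both of these 2 were GstE9 probe sets. Aop RNAi against control gave 0 of 36 (background 0.176%), 2 of 36 unadjusted (background 5.73%) and 2 of 36 by the methods' test (background 2.62%). On top of TFAM o/e, Pnt RNAi gave 0 of 36 (background 0.16%), 2 of 36 unadjusted (background 4.6%) and 0 of 36 by the methods' test (background 2.96%). Aop RNAi on top of TFAM o/e gave 0 of 36 (background 0.0959%), 3 of 36 unadjusted (background 3.41%) and 1 of 36 by the methods' test (background 2.59%), which was GstZ1.

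**Figure D4:**
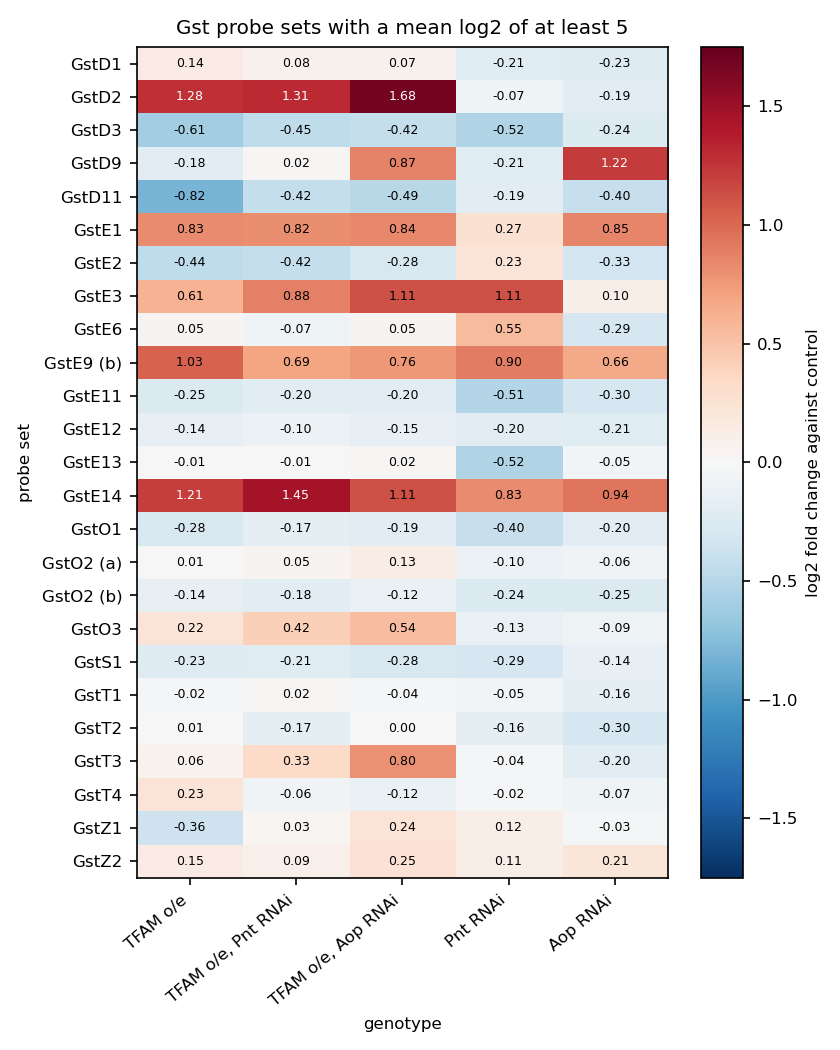
log2 fold change against control (colour and printed value) of the 25 Gst probe sets with a mean log2 of at least 5 (rows) in the 5 other genotypes (columns). GstD2 is high in the 3 columns with TFAM o/e, GstD9 in the 2 columns with Aop RNAi, and GstE9 (b) is above control in all 5. All columns share the same 3 control arrays.

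GstD9, the neighbour of GstD1, had the highest log2 fold change of the Gst probe sets with Aop RNAi, alone and on top of TFAM o/e. It read 9.34, 9.55 and 8.59 in Aop RNAi arrays, against 8.04, 7.58 and 8.21 in control arrays. It read 9.14, 9.27 and 8.03 in TFAM o/e, Aop RNAi arrays, against 7.50, 7.81 and 7.97 in TFAM o/e arrays. Aop RNAi arrays lay above control arrays, and TFAM o/e, Aop RNAi arrays lay above TFAM o/e arrays. Over both backgrounds together the arrays overlapped, as TFAM o/e, Aop RNAi replicate 3 (8.03) was below control replicates 1 (8.04) and 3 (8.21). Replicate 3 was the lowest of each Aop RNAi genotype. The log2 fold change was 1.22 against control (SE 0.28, adjusted p = 0.12) and 1.05 against TFAM o/e (SE 0.28, adjusted p = 0.488).

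Averaged over both backgrounds, a comparison added after the values were seen, GstD9 was higher with Aop RNAi by 1.14 (SE 0.20, 2.20-fold, adjusted p = 0.015). It was the only Gst probe set of 36 called in that average (background 0.197%), with 4 of 36 at an unadjusted p under 0.05 (background 4.87%). The call was lost in 5 of 12 fits that left out 1 array: control replicate 2, TFAM o/e replicate 1, Aop RNAi replicates 1 and 2, and TFAM o/e, Aop RNAi replicate 2 (adjusted p up to 0.0628). With Pnt RNAi GstD9 read 7.99, 8.02 and 7.88 in TFAM o/e, Pnt RNAi arrays and 7.73, 7.80 and 7.67 in Pnt RNAi arrays, and its average change was 0.00 (SE 0.20, adjusted p = 0.999). The same kind of average for Pnt RNAi called 0 of 36 (background 0.304%) and 1 of 36 unadjusted (background 6.78%), which was GstE3. Midgut markers summed to 5.07 to 7.73 in the 6 arrays with Aop RNAi, with the highest value in Aop RNAi replicate 2. In the 6 control and TFAM o/e arrays they summed to 4.86 to 5.92, and the ranges overlapped. In the Aop RNAi average their median log2 fold change was 0.90, and 2 of 4 probe sets had an unadjusted limma p under 0.05 (background 4.87%). These 4 probe sets were dim, with mean log2 signals of 2.95 to 3.58. The part of midgut in the GstD9 values was not tested.

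Most Epsilon genes lie in a second cluster on 2R. Some probe sets of the class had means above control in several genotypes, in changes that did not pass the test. GstE9 (b) read 6.28, 6.22 and 6.21 in TFAM o/e, 5.92, 6.26 and 5.50 in TFAM o/e, Pnt RNAi and 6.68, 5.83 and 5.38 in TFAM o/e, Aop RNAi. It read 5.94, 6.43 and 5.94 in Pnt RNAi and 5.64, 5.87 and 6.09 in Aop RNAi, against 5.45, 5.20 and 4.97 in control. Of the 15 arrays of the other genotypes, 14 lay above the highest control array. Against control the log2 fold change was 1.03 for TFAM o/e (SE 0.33, adjusted p = 0.566), 0.90 for Pnt RNAi (adjusted p = 0.521) and 0.66 for Aop RNAi (adjusted p = 0.898). All of these rest on the same 3 control arrays. GstE9 (a), the other probe set under this symbol, was dim. It read 4.89, 5.24 and 4.72 in TFAM o/e, 1.93, 4.82 and 4.54 in TFAM o/e, Pnt RNAi and 4.89, 5.13 and 5.03 in TFAM o/e, Aop RNAi. It read 5.12, 5.31 and 4.83 in Pnt RNAi and 4.34, 4.13 and 4.06 in Aop RNAi, against 4.45, 4.47 and 4.76 in control. Pnt RNAi arrays lay above control arrays by at least 0.07, with a log2 fold change of 0.53 (SE 0.56, adjusted p = 0.87), and TFAM o/e arrays overlapped with control arrays (0.39, adjusted p = 1).

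GstE3 read 8.07, 8.21 and 7.81 in TFAM o/e, Aop RNAi arrays, against 6.96, 7.24 and 6.86 in Aop RNAi arrays. It read 7.45, 7.63 and 7.52 in TFAM o/e arrays, against 6.60, 7.07 and 7.09 in control arrays. In the Pnt RNAi background the arrays overlapped widely, at 7.06, 8.95 and 7.39 in TFAM o/e, Pnt RNAi and 9.10, 7.30 and 7.70 in Pnt RNAi. The log2 fold changes with TFAM o/e were 1.01 (adjusted p = 1), 0.61 (adjusted p = 0.978) and -0.23 (adjusted p = 0.95; SE 0.41 each). Pnt RNAi exceeded control by 1.11 (adjusted p = 0.532), in which Pnt RNAi replicate 1 stood far above the other 2 arrays, and by 0.58 without that array (adjusted p = 0.963). The 2 highest GstE3 arrays, Pnt RNAi replicate 1 at 9.10 and TFAM o/e, Pnt RNAi replicate 2 at 8.95, were also those with the highest summed fat body markers, at 14.18 and 14.04, where the other arrays lay at 12.26 to 13.04. The part of fat body in the GstE3 values was not tested.

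GstE1, which begins the cluster with GstE10, was 0.82 to 0.85 above control in 4 of the other 5 genotypes and 0.27 above it in Pnt RNAi (SE 0.26 each). None of these passed, with adjusted p from 0.335 to 0.866, and control replicate 1, the highest control array, overlapped with all of them but Aop RNAi. GstE12 and GstE13, bright Epsilon genes outside the cluster, had average changes with TFAM o/e of 0.01 and 0.19 and did not pass.

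GstS1, the only Sigma class gene and one known to conjugate the lipid peroxidation product 4-hydroxynonenal, passed no comparison. It read 11.51, 11.75 and 11.72 in TFAM o/e arrays, against 11.76, 11.63 and 12.27 in control arrays. It read 11.67, 11.69 and 11.66 in TFAM o/e, Pnt RNAi arrays, against 11.68, 11.56 and 11.56 in Pnt RNAi arrays, and 11.50, 11.79 and 11.52 in TFAM o/e, Aop RNAi arrays, against 11.99, 11.63 and 11.61 in Aop RNAi arrays. All 18 values lay between 11.50 and 12.27, and the average log2 fold change with TFAM o/e was -0.10 (SE 0.09, adjusted p = 0.891). The Zeta genes GstZ1 and GstZ2, adjacent on 3R, changed by -0.06 and 0.05 on average with TFAM o/e and did not pass.

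The combined genotypes against control gave the same single member, GstD2. TFAM o/e, Pnt RNAi against control called 1 of 36 (background 0.325%), with 5 of 36 at an unadjusted p under 0.05 (background 8.49%) and 1 of 36 by the methods' test (background 3.48%). TFAM o/e, Aop RNAi against control called 1 of 36 (background 0.229%), with 7 of 36 unadjusted (background 6.11%), all 7 of them higher, and 3 of 36 by the methods' test (background 3.01%). The interaction terms called 0 of 36 by limma for Pnt RNAi (background 0.0266%) and 0 of 36 for Aop RNAi (background 0.0533%). At an unadjusted p under 0.05 they held 3 of 36 (background 4.42%) and 3 of 36 (background 3.99%), and the methods' test has no interaction.

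GstE14, also called noppera-bo, acts in ecdysteroid synthesis in the ring gland, the endocrine organ attached to the larval brain. It was the most variable bright Gst gene: its pooled SD within genotypes was 1.47, where the median of probe sets with a mean of 8 to 10 was 0.23 and only 0.121% of them reached 1.47. GstE14 read 10.45, 9.81 and 6.92 in TFAM o/e, 10.29, 9.15 and 8.48 in TFAM o/e, Pnt RNAi and 10.03, 8.99 and 7.87 in TFAM o/e, Aop RNAi. It read 9.22, 9.20 and 7.62 in Pnt RNAi, 9.78, 9.08 and 7.51 in Aop RNAi and 9.93, 8.24 and 5.39 in control. Replicate 3 was the lowest array in all 6 genotypes.

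Markers of the ring gland moved with GstE14. The summed signal of dib, sad, spok and nvd, enzymes of ecdysteroid synthesis, and Akh, the hormone of the attached corpora cardiaca, was 9.95 to 12.11 in the 6 arrays numbered 3, 11.50 to 12.92 in those numbered 2 and 12.57 to 13.48 in those numbered 1. It too was lowest in replicate 3 of all 6 genotypes. The pooled SD of GstE14 within genotypes was 1.47 and that of its difference from the marker sum 0.58. The average change of GstE14 with TFAM o/e was 0.67 (SE 0.57, adjusted p = 0.874), and with the replicate number as a block 0.67 (SE 0.24, adjusted p = 0.339).

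**Figure D5:**
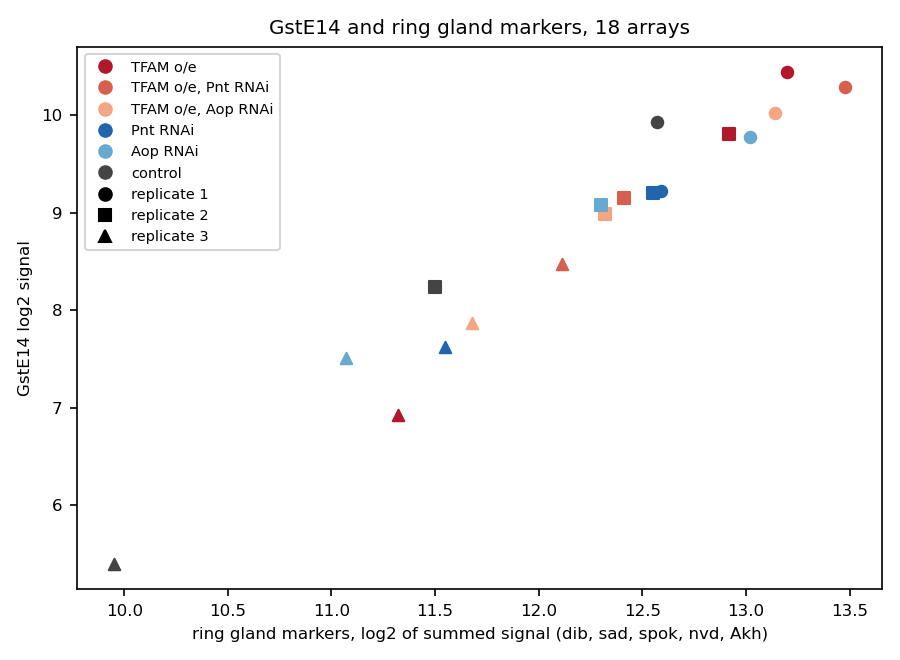
GstE14 log2 signal (y axis) against the log2 of the summed signal of 5 ring gland markers (x axis), 1 point per array, with colour for genotype and shape for replicate number. The arrays numbered 3 lie at 5.39 to 8.48 and those numbered 1 at 9.22 to 10.45.

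Other genes of glutathione and redox metabolism were read from a list of 31 probe sets. Gss1, Gss2, Sod1, Jafrac1, Jafrac2, Prx2540-1, Prx5, Zw and Pgd were on the list but had no matched probe set and were not read. With the TFAM o/e average 0 of 31 were called by limma (background 0.543%), 5 of 31 had an unadjusted p under 0.05 (background 7.64%), and the methods' test was not run on averages. Gclc, the catalytic subunit of the enzyme that limits glutathione synthesis, changed by 0.67 (SE 0.23, adjusted p = 0.4), and its partner Gclm by 0.07 (adjusted p = 0.947). Mgstl, the membrane-bound microsomal transferase, changed by 0.32 on its bright probe set (SE 0.09, adjusted p = 0.163). Sod3, the extracellular superoxide dismutase, changed by -0.57 on one probe set (SE 0.15, adjusted p = 0.163) and by 0.00 on the other. Cat (catalase), Sod2 and Trxr-1 lay between -0.15 and 0.02.

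The bright probe set of cnc, 1 of 2 for that gene, was lower with both RNAi transgenes. It read 9.56, 9.08 and 9.47 in Pnt RNAi arrays and 8.94, 8.62 and 9.51 in Aop RNAi arrays, against 10.40, 10.80 and 11.25 in control arrays. All arrays with an RNAi transgene were below all arrays without one, and TFAM o/e arrays, at 10.51, 10.68 and 10.63, lay within the control range. The log2 fold change was -1.45 for Pnt RNAi (SE 0.27, adjusted p = 0.0208) and -1.79 for Aop RNAi (SE 0.27, adjusted p = 0.00389). With TFAM o/e the probe set read 9.18, 9.21 and 9.48 under Pnt RNAi and 8.39, 9.61 and 9.20 under Aop RNAi. Against TFAM o/e, the change with Aop RNAi passed (-1.54, SE 0.27, adjusted p = 0.0334) and the change with Pnt RNAi did not. The dim cnc probe set averaged 3.05 in Pnt RNAi and 3.46 in Aop RNAi, against 2.39 in control, and was not called. Averaged with the TFAM o/e background the change of the bright probe set was -1.38 for Pnt RNAi (SE 0.19, adjusted p = 0.000822) and -1.67 for Aop RNAi (SE 0.19, adjusted p = 0.000167). GstD1 changed by -0.14 and -0.15 in these averages (SE 0.15 each, adjusted p = 0.938 and 1). Keap1, maf-S, the partner of cnc in DNA binding, and ref(2)P, the fly p62, were not called in any comparison.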

How the data were processed

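The deposited values were log2 signals per probe set. The authors made them with the MAS5.0 algorithm in the Transcriptome Analysis Console, and the versions are not given in the sources used here. CNS RNA of 20 larvae per array was amplified from 10 ng. Array medians were between 5.03 and 5.56, 3.44 to 7.42% of probe sets of an array read 0, and each array correlated with its own genotype at 0.935 to 0.973. The 183 array control probe sets were left out. Names came from the platform annotation updated through Entrez identifiers: 13647 probe sets had 1 symbol, 402 several and 4720 none. No Gst gene was among those with several, and of 35 Gst genes in the RefSeq table GstE8 had no probe set under its name. From the other lists 21 symbols were not matched.

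All 18 arrays entered 1 linear model of 6 genotypes (R 4.3.3, limma 3.58.1, eBayes with an intensity trend, two-sided), with 12 comparisons and 2 RNAi averages added later. The Benjamini-Hochberg adjustment ran over 18769 probe sets in each comparison, and the threshold was 0.05. The procedure was tested on simulated data with independent arrays and with changes planted only in probe sets with a mean log2 of at least 6. That test does not cover the dim members or shifts shared by arrays of the same replicate number. The methods' test was run beside it: unpaired, equal variance, fold changes from Tukey bi-weight averages, an unadjusted p under 0.05 and 1.5-fold. Values in every array are given for probe sets past the threshold in any comparison, for those with an unadjusted p under 0.05, 1.5-fold and separate arrays in at least 2 of 9 pairwise comparisons, and for GstD1 and GstS1. Further values of GstD3, GstD5, GstE9 (a), GstE14 and GstE3 without single arrays were added after their values were seen. The members and lists were chosen with earlier results of these data known.

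Replicate numbers were checked for pairing by correlating residuals of same-numbered arrays over 8582 probe sets. Every correlation was over 0.1 for TFAM o/e, Pnt RNAi against TFAM o/e (0.335, 0.177 and 0.429) and against control (0.171, 0.268 and 0.233). In each of the other pairwise comparisons at least 1 correlation was under 0.1, such as -0.139 for number 2 in TFAM o/e against control. Any such pairing comes from the data and not from the labels. The labels do not say whether the 3 samples of a genotype came from separate cultures, so p-values measure the spread between these samples. Figures were drawn with matplotlib 3.10.9.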

Additional observations from a re-analysis of the deposited data

How the results depend on the processing

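No called Gst value changed sign under the alternatives run. The average call of GstD2 held under all 6 other settings and in 18 of 18 fits without 1 array (1.45 to 1.59). Against control, the count of 1 Gst call became 0 under quantile normalization, with signals under 32 set to 32, with only the arrays compared and with the methods' test after Benjamini-Hochberg, and 2 at the methods' thresholds (0 to 1 without 1 array). Against Pnt RNAi, 1 became 0 with median centring, only the arrays compared and the adjusted methods' test, and 3 at the methods' thresholds (0 to 0 without 1 array). Against Aop RNAi, 2 became 1 with no intensity trend, 0 with only the arrays compared and the adjusted methods' test, and 5 at the methods' thresholds (1 to 2). The average count of 3 became 1 with no intensity trend (1 to 3). For the RNAi comparisons the methods' thresholds gave 2 for Pnt RNAi, 2 for Aop RNAi and 1 for Aop RNAi on TFAM o/e (0 to 1). For TFAM o/e, Pnt RNAi against control 1 became 0 with only the arrays compared and the adjusted methods' test (0 to 1). For TFAM o/e, Aop RNAi against control 1 became 2 (GstD2 and GstT3) under quantile normalization and with a mean log2 of at least 6, 3 at the methods' thresholds, and 0 with only the arrays compared and the adjusted methods' test (1 to 2). The Aop RNAi average of 1 became 0 with signals under 32 set to 32, no intensity trend and only the arrays compared (0 to 1). GstT3 lost its average with no intensity trend, and GstO3 with median centring, signals under 32 set to 32 and no intensity trend. The cause was not tested. Where a genotype was left with 2 arrays, it shared the spread of the others.

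Under the replicate block, which adds the replicate number to the model, the count for TFAM o/e, Aop RNAi against control was 2 (GstD2 and GstT3), and no other count of Gst calls changed. GstD10, dim and not called, changed sign with signals under 32 set to 32, to -0.13 (0.63 as reported) against control and -0.15 (0.08) for the average. Median centring moved the median of all probe sets by -0.16 in the interaction with Pnt RNAi and by 0.11 for TFAM o/e, Aop RNAi against Aop RNAi. Members above 0 were then 15 of 36 (19 as reported) and 30 (26; also 30 under quantile normalization). They were 21 (16) for Pnt RNAi against control and 12 (20; 16 under quantile normalization) for TFAM o/e, Pnt RNAi against TFAM o/e. The 11 dim members, with a mean log2 under 5, could show only large changes.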
